A study of Mus musculus with 6 samples.

Results

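Short-chain fatty acids, chiefly acetate, propionate and butyrate, are made by colonic bacteria from dietary fiber, and 6 genes for their uptake and sensing were examined. They were taken by gene symbol from the 27546 genes of an FPKM table of mouse distal colon, where FPKM are fragments scaled by gene length and by library depth. The transporters were Slc16a1, Slc16a3 and Slc5a8, and the receptors were Ffar2, Ffar3 and Hcar2. All 6 genes were found and all 6 passed the filter on low values, a mean FPKM of at least 0.5, which Ffar3 passed through the Gm31629-/- mice alone.

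The 3 Gm31629-/- mice and 3 WT littermates were C57BL/6 mice by the labels and C57BL/6J by the methods, 8 weeks old, and all 6 drank 3% DSS (dextran sulfate sodium, which damages the lining of the colon) for 7 days and were sacrificed on day 8. No mouse was untreated, so genotypes were compared under injury only. Gm31629 is a long noncoding RNA gene on chromosome 1, and its locus was removed from every cell of the body rather than from the epithelium alone. Its own level was not analysed here. The study's methods speak of RNA pooled from the mice of each genotype, whereas the table holds a column per mouse, and the columns were read as separate mice.

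Butyrate is the main fuel of colonocytes, which take it up across the apical membrane and burn it in mitochondria or turn it into ketone bodies. Uptake runs through proton-coupled monocarboxylate transporters and a sodium-coupled transporter. Sensing runs through G protein-coupled receptors that are known from epithelial, enteroendocrine, nerve, fat and immune cells.

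In Gm31629-/- mice, Slc5a8, the sodium-coupled transporter SMCT1, was 2.37-fold lower than in WT mice by the ratio of mean FPKM. The receptor Ffar2 (GPR43) was 1.92-fold lower, and the butyrate and niacin receptor Hcar2 (GPR109A) was 5.65-fold higher. The differences of Slc16a1 (MCT1), Slc16a3 (MCT4) and Ffar3 (GPR41) did not pass the test. A gene passed at an adjusted p under 0.05 (limma on log2(FPKM + 1), Benjamini-Hochberg over 14657 genes), and was called where its log2 fold change also exceeded 1 in either direction. Of the 6 genes, 2 were called, 1 in each direction, against 23.1% of all tested genes called, 18.4% higher and 4.64% lower in Gm31629-/- mice. An adjusted p under 0.05 was reached by 3 of 6, against 43.5% of all genes. The groups did not overlap for 4 of 6, against 57.8% of all genes, so none of these counts stood far from the background. The median log2 fold change of the 6 genes was −0.26 and that of all tested genes was 0.15.

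**Figure D1:**
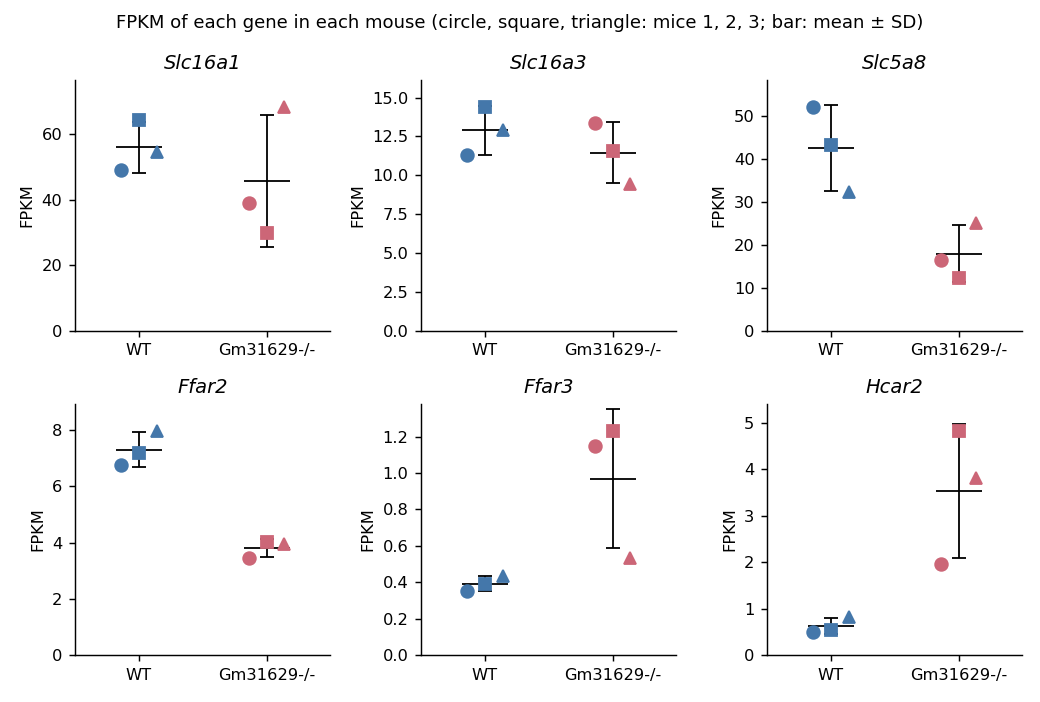
FPKM of each of the 6 genes (vertical axes, linear, from 0) in the 3 WT and 3 Gm31629-/- mice, with the symbol shape marking the mouse number and bars giving the mean ± SD. The groups are apart for Slc5a8, Ffar2, Ffar3 and Hcar2 and overlap for Slc16a1 and Slc16a3.

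The libraries were similar in depth but not in make-up. Each held 18004615 to 18794288 mapped fragments by the estimate from the table, and correlations of log2 values were 0.979 to 0.985 among WT mice, 0.915 to 0.937 among Gm31629-/- mice, and 0.777 to 0.853 between genotypes. The 4 Y-linked genes examined were listed above 0 in Gm31629-/- mouse 1 alone, and Xist was at 8.35 to 13.8 FPKM in the other 5 mice and 0.00606 in that one, although the methods describe male mice. Without this mouse the same 2 genes were called and the same 3 passed the adjusted p. Epithelial markers were present in every library, and the sum of 15 of them ran from 13112 to 14392 FPKM in the WT mice and from 8224 to 9709 in the Gm31629-/- mice, with 4 called lower and 7 lower by adjusted p. The list was not uniform, with 12 log2 fold changes negative and 3 positive. Epcam (0.005) and Cdh1 (−0.04) hardly differed, whereas Krt8, the largest part of the sum, was at −1.05 and Cdx2 at −3.14. Values rescaled to these markers depend on that choice of genes. Smooth muscle markers summed to 21.7 to 38.3 FPKM in WT mice against 1165 to 1794 in Gm31629-/- mice. Of these markers 9 of 10 were called higher and the tenth, Tagln, was higher by adjusted p. Tagln, Lmod1 and Synpo2 passed the filter on low values through the Gm31629-/- mice alone, which favors a higher value there. Over all tested genes 18.4% were called higher and 4.64% lower. The defining neuronal marker Elavl4 was listed at 0 in all 3 WT libraries, although the nerve plexuses and muscle belong to the labelled tissue. Whether the same layers of the colon wall were taken from both genotypes is not given in the sources used here, so for all genes compared here a difference in dissection and one in genotype cannot be told apart. In whole tissue, fewer cells of a type and less RNA per cell cannot be told apart.

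The transcription start regions of 4 of the genes are shown because 2 of them lie side by side on chromosome 7 with fold changes of opposite sign, and because the transporters differ in base composition. Sequences are from RefSeq on GRCm38.p6, 250 bases before to 50 bases after the start, 5′ to 3′ on the strand of the gene. Capitals mark any match on either strand to GGGCGG (a GC box), ACGTG (the core of a hypoxia response element), TTTAT (the core bound by CDX factors) or TGANTCA (an AP-1 site), and a CACGTG holds ACGTG on both strands. The regions are chr3:104638414-104638713 on the plus strand for Slc16a1, chr10:88885742-88886041 on the plus strand for Slc5a8, chr7:30823726-30824025 on the minus strand for Ffar2, and chr7:30856129-30856428 on the minus strand for Ffar3.
Slc16a1: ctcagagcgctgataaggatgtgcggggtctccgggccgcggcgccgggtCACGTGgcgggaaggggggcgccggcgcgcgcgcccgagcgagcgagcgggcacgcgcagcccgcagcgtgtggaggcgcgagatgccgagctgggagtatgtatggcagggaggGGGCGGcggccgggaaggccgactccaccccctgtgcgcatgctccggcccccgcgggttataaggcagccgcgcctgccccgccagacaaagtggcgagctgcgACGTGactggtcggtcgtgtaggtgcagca
Slc5a8: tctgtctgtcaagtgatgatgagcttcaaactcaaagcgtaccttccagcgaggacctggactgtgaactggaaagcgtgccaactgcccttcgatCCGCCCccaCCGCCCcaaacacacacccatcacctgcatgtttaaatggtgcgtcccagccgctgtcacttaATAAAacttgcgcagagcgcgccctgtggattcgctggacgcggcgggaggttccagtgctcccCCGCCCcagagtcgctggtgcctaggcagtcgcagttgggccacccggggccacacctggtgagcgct
Ffar2: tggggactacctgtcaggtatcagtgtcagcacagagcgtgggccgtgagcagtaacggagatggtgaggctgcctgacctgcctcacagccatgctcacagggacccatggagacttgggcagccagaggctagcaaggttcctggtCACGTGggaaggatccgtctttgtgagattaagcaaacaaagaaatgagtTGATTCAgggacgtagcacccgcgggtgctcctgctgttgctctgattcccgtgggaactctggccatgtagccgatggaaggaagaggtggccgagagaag
Ffar3: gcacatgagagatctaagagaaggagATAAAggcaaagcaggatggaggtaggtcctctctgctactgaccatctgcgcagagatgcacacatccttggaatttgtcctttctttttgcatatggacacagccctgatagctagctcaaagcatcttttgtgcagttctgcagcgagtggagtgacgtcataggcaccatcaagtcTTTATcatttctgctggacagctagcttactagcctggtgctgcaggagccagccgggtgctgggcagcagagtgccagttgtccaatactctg

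The Slc16a1 region was 73.7% GC with 42 CpG, the Slc5a8 region 60.7% with 20, the Ffar2 region 57.0% with 11, and the Ffar3 region 50.3% with 4. Over 32851 promoters of the same length the medians were 52.7% GC and 7 CpG. The Slc16a3 region at chr11:120948817-120949116 resembled that of Slc16a1, with 73.3% GC and 36 CpG, although this RefSeq start lies 587 bases inside the gene as annotated by GENCODE. Slc16a1 held 1 GC box and 3 ACGTG matches, Slc16a3 held 1 and 2, and Slc5a8 held 3 GC boxes, 1 TTTAT and no ACGTG. The Ffar2 region held 2 ACGTG matches and 1 AP-1 site, and the Ffar3 region held 2 TTTAT matches alone. These letters are common, since 35.7% of all promoters hold a GC box, 19.6% hold ACGTG, 40.0% hold TTTAT and 7.81% hold the AP-1 site. RefSeq lists 4 starts for Ffar2, of which the one at the annotated gene start is shown. The other 3, which lie 2127, 2583 and 2636 bases inside the gene, held 1 TTTAT, 1 GC box and 1 GC box, and the last 2 regions overlap. Hcar2 was not matched.

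Among the transporters, Slc5a8 alone passed the adjusted p, and its change was not tested against those of the other transporters. Slc5a8 (ENSMUSG00000020062, chr10:88885992-88929515 on GRCm38, plus strand, 15 exons) encodes a sodium-coupled carrier of butyrate, lactate and pyruvate on the apical face of colonocytes, where it can take up its substrates at low concentration. It was at 52.2, 43.2 and 32.2 FPKM in WT mice 1 to 3 and at 16.5, 12.1 and 25.1 FPKM in Gm31629-/- mice 1 to 3. Every WT value was above every Gm31629-/- value, and the gap between the nearest pair, mouse 3 of each genotype, was smaller than the range within either group. The means were 42.5 ± 10.02 FPKM (SD, n = 3) in the WT mice and 17.9 ± 6.61 in the Gm31629-/- mice. The log2 fold change was −1.23 (SE 0.29, 95% interval −1.90 to −0.56), and the adjusted p from limma was 0.0129. Without Gm31629-/- mouse 2 the log2 fold change was −0.997 with an adjusted p of 0.0280, just short of a call. Rescaled to the epithelial markers it was −0.64 with an adjusted p of 0.0706.

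Slc16a1, also called MCT1, moves lactate, butyrate and ketone bodies together with a proton and is the widely expressed monocarboxylate transporter. The gene lies at chr3:104638668-104658462, plus strand (ENSMUSG00000032902). It was at 49.2, 64.5 and 54.6 FPKM in the WT mice and at 39.0, 29.8 and 68.5 FPKM in the Gm31629-/- mice. Gm31629-/- mouse 3 had the highest value of all 6 mice and mouse 2 the lowest, so the groups overlapped. The log2 fold change was −0.36 (SE 0.30, 95% interval −1.06 to 0.33, adjusted p by limma 0.347), an interval that runs from about the fold required for a call to a modest rise. Without mouse 3 the log2 fold change was −0.69 with an adjusted p of 0.0367, so 1 mouse decided the side of the threshold, and rescaled to the epithelial markers the sign turned, to 0.24.

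Slc16a3, or MCT4, is the monocarboxylate transporter of glycolytic cells, known for lactate export and for induction by hypoxia. It lies at chr11:120948480-120960868, plus strand (ENSMUSG00000025161). WT mice had 11.3, 14.4 and 12.9 FPKM and Gm31629-/- mice 13.3, 11.6 and 9.46 FPKM. The groups overlapped, and no Gm31629-/- value was above the highest WT value. The log2 fold change was −0.16 (SE 0.17, 95% interval −0.57 to 0.24), with an adjusted p of 0.475 by limma, and the interval does not reach the fold required for a call in either direction. Rescaled to the epithelial markers it was 0.41, with an adjusted p of 0.106.

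FPKM are per length, so levels can be set side by side between genes. In WT mice Slc16a1 was the highest of the transporters, Slc5a8 next and Slc16a3 lowest, with the ranges of Slc16a1 and Slc5a8 overlapping. In Gm31629-/- mice Slc16a1 stood clear of Slc5a8, while Slc5a8 and Slc16a3 overlapped. Slc5a8 made up 46.3%, 35.4% and 32.3% of the summed FPKM of the 3 transporters in the WT mice and 24.0%, 22.7% and 24.4% in the Gm31629-/- mice, and the groups did not overlap. The transporter sum itself was 113, 122 and 99.7 FPKM in the WT mice and 68.9, 53.5 and 103 FPKM in the Gm31629-/- mice, where mouse 3 fell within the WT range. Within each library the log2 ratio of Slc16a3 to Slc16a1 was −2.12, −2.16 and −2.08 in the WT mice and −1.55, −1.36 and −2.86 in the Gm31629-/- mice. The WT values were nearly identical and the Gm31629-/- values lay on both sides of them. The difference of means was 0.20 (two-sided exact permutation test, p = 0.8, where 0.1 is the smallest p that 3 mice against 3 allow).

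**Figure D2:**
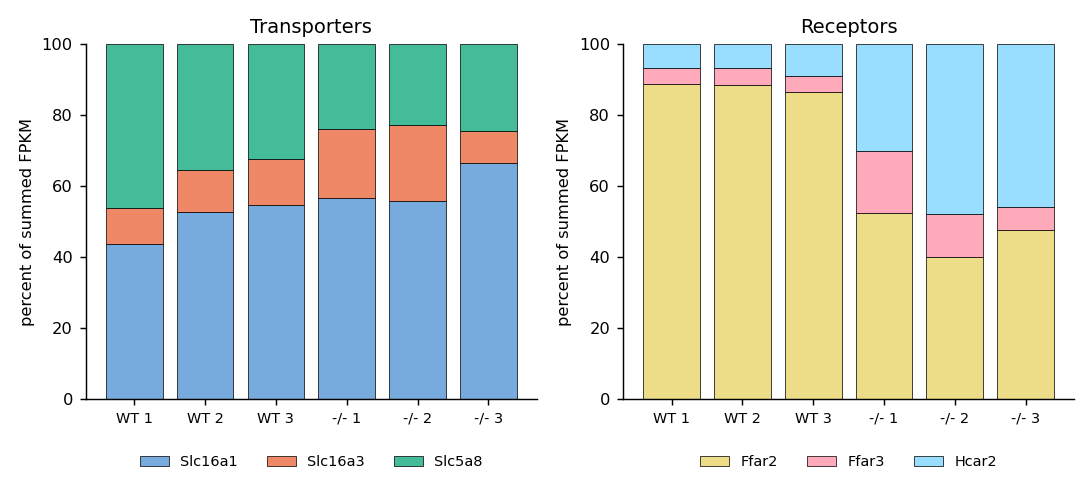
Share of each gene in the summed FPKM of the 3 transporters (left) and of the 3 receptors (right), in percent, for WT mice 1 to 3 and Gm31629-/- mice 1 to 3. Slc5a8 takes 32.3% to 46.3% of the transporter sum in the WT mice and 22.7% to 24.4% in the Gm31629-/- mice, and Ffar2 takes 86.4% to 88.7% of the receptor sum in the WT mice and 39.9% to 52.5% in the Gm31629-/- mice.

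The receptors that changed did so in opposite directions. Ffar2 and Ffar3 lie 30554 bases apart on the minus strand of chromosome 7. Ffar2 (ENSMUSG00000051314, chr7:30818348-30823775) encodes a receptor for acetate, propionate and butyrate that is known from neutrophils, enteroendocrine cells and epithelium. It was at 6.74, 7.19 and 7.97 FPKM in the WT mice and at 3.45, 4.02 and 3.96 FPKM in the Gm31629-/- mice. Both groups were tight and far apart, on 348 to 418 fragments for each WT mouse and 177 to 207 for each Gm31629-/- mouse. The means were 7.30 ± 0.622 FPKM and 3.81 ± 0.315 FPKM (SD, n = 3). On the log2 scale Ffar2 fell by 0.79 (SE 0.15, 95% interval −1.13 to −0.44, adjusted p by limma 0.00574), which is short of the fold required for a call. With libraries rescaled by their median ratio the change was −1.002 and the gene was called, and rescaled to the epithelial markers it was −0.27 with an adjusted p of 0.246. Of the 2796 stretches of 50 bases in Ffar2 transcripts, 9 occur in transcripts of other genes, whereas the other 5 genes shared none, so little of these counts can be owed to shared sequence.

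Ffar3 encodes the sister receptor, which prefers propionate and butyrate and is known from enteric and sympathetic neurons and enteroendocrine cells. The gene lies at chr7:30854330-30856178 in 1 exon (ENSMUSG00000019429). It was at 0.351, 0.390 and 0.432 FPKM in WT mice, on 12, 13 and 15 fragments, and at 1.15, 1.23 and 0.530 FPKM in Gm31629-/- mice, on 39, 42 and 18 fragments. The groups did not overlap, but Gm31629-/- mouse 3 stood close to the WT mice. The ratio of mean FPKM was 2.48, and the log2 fold change, which the added pseudocount shrinks at so low a level, was 0.48 (SE 0.19, 95% interval 0.04 to 0.92, adjusted p by limma 0.0731). Without Gm31629-/- mouse 3 it was 0.65 with an adjusted p of 0.0117. A pseudocount of 0.1 gave 1.05 with an adjusted p of 0.0641, so the size rests on the pseudocount and the side of the threshold does not. Rescaled to the epithelial markers the adjusted p was 0.0227.

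Hcar2 encodes a receptor for butyrate, beta-hydroxybutyrate and niacin, coupled to inhibitory G proteins and known from colonocytes, adipocytes, macrophages and neutrophils. It lies at chr5:123863570-123865499, minus strand, in 1 exon (ENSMUSG00000045502). It was at 0.504, 0.547 and 0.827 FPKM in the WT mice and at 1.97, 4.83 and 3.81 FPKM in the Gm31629-/- mice. Every Gm31629-/- mouse was above every WT mouse, and mouse 1 was the lowest of the 3. These values rest on 18, 19 and 30 fragments in WT mice against 70, 172 and 135 in Gm31629-/- mice. The means were 0.626 ± 0.175 FPKM and 3.54 ± 1.45 FPKM (SD, n = 3). The log2 fold change was 1.43 (SE 0.26, 95% interval 0.81 to 2.05, adjusted p by limma 0.00553), and Hcar2 was called with any 1 of the 6 mice left out. A pseudocount of 0.1 gave 2.26.

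The receptor sum was 7.60, 8.12 and 9.23 FPKM in the WT mice and 6.56, 10.1 and 8.30 FPKM in the Gm31629-/- mice, so the total overlapped while its make-up did not. Ffar2 was 88.7%, 88.5% and 86.4% of it in the WT mice and 52.5%, 39.9% and 47.7% in the Gm31629-/- mice. Hcar2 was 6.64%, 6.73% and 8.96% in the WT mice and 30.02%, 47.9% and 45.9% in the Gm31629-/- mice. In WT mice the order was Ffar2, then Hcar2, then Ffar3, with no overlap of ranges. In Gm31629-/- mice Ffar2 and Hcar2 overlapped and Ffar3 stayed below both. These shares describe messenger RNA per length of gene and were not tested.

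**Figure D3:**
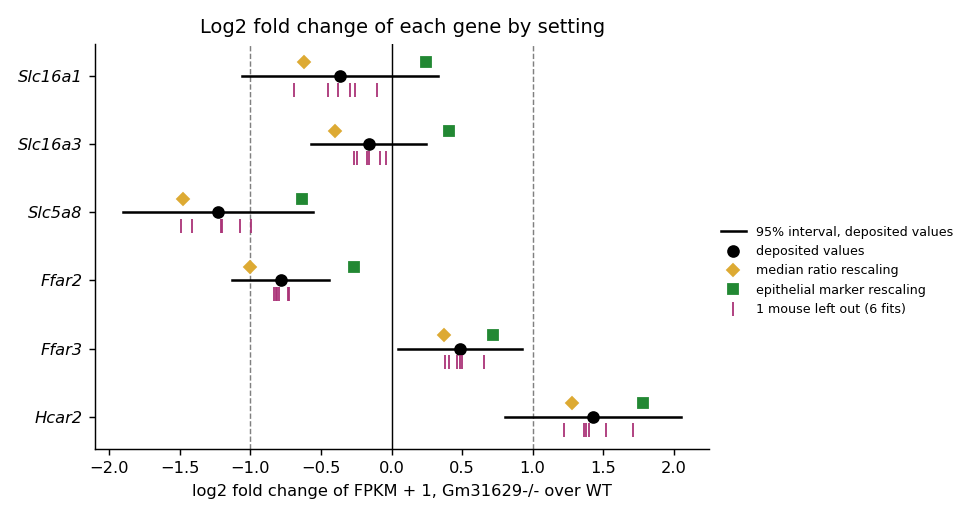
Log2 fold change of FPKM + 1 in Gm31629-/- over WT mice for each gene, with the 95% interval for the deposited values, the same after both rescalings, and after leaving out each mouse. Dashed lines mark the fold required for a call. Hcar2 stays above 1 in every setting shown, Slc5a8 and Ffar2 stay below 0, and Slc16a1 and Slc16a3 pass to the other side of 0 under epithelial rescaling.

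Each gene was also set against the geometric mean of the 15 epithelial markers within its own library, which no scaling of libraries can alter. The log2 ratio of Slc5a8 to the markers was −3.49, −3.83 and −4.05 in the WT mice and −4.54, −4.88 and −3.94 in the Gm31629-/- mice. Gm31629-/- mouse 3 fell within the WT range, and the difference of means was −0.66 (two-sided exact permutation test, p = 0.2). For Ffar2 the ratio was −6.44, −6.41 and −6.07 in the WT mice and −6.80, −6.48 and −6.61 in the Gm31629-/- mice, without overlap and with a difference of −0.32 (exact p = 0.1). For Hcar2 the difference was 3.06, for Ffar3 1.84 and for Slc16a3 0.44, each without overlap and each at the smallest possible exact p of 0.1. For Slc16a1 it was 0.24 (exact permutation p = 0.9). Of these 7 ratios, counting that of Slc16a3 to Slc16a1, none can pass a threshold of 0.05 with 3 mice a group, and the part of epithelial content in the lower Slc5a8 and Ffar2 levels was not tested beyond these values.

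Markers of other cells known to carry these receptors were higher in the Gm31629-/- libraries. All 9 neutrophil markers were called higher, against 18.4% of all tested genes. Their sum ran from 72.4 to 131 FPKM in the WT mice and from 518 to 1040 in the Gm31629-/- mice. All 10 macrophage markers were called higher, with sums of 58.3 to 73.4 and 587 to 1293 FPKM. Of 7 tested adipocyte markers 6 were called higher, with sums of 13.6 to 57.7 and 149 to 525 FPKM. Over Gm31629-/- mice 1 to 3 the macrophage sums were 587, 1293 and 677 FPKM and the adipocyte sums 217, 525 and 149 FPKM. Both were highest in mouse 2, as was Hcar2. The neutrophil sums were 518, 758 and 1040 FPKM, of which Ly6g alone gave 288, 596 and 965. In WT mice 1 to 3 Ly6g gave 66.7, 121 and 80.8 FPKM of sums of 72.4, 131 and 88.5. These sums thus mostly follow 1 gene. Among the other markers of Gm31629-/- mice the order over mice was not uniform. S100a8, S100a9, Retnlg and Mmp8 fell from mouse 1 to mouse 3, while Csf3r, Cxcr2, Mmp9 and Trem1 were highest in mouse 2. For enteric neurons and glia 8 of 9 markers were called higher, with sums of 2.82 to 5.41 FPKM in the WT mice and 85.0, 131 and 38.6 FPKM in the Gm31629-/- mice 1 to 3. Ffar3 was likewise highest in mouse 2 and lowest in mouse 3. The enteroendocrine sums (1253, 2511 and 1075) and the adipocyte sums had that order too. Of 8 enteroendocrine markers 3 were called higher (Gcg, Pyy and Insl5) and 1 lower (Sct), and Chga and Chgb did not pass, with sums of 259 to 342 and 1075 to 2511 FPKM. Of 8 absorptive colonocyte markers 1 was called higher (Slc37a2) and 2 lower (Car1 and Guca2b). The list disagreed, with 5 of 8 log2 fold changes positive and a median of 0.80. Car1, the largest of the 8 in the WT mice, had a mean of 4692 FPKM there and 1249 in the Gm31629-/- mice. The sum of the list was 6369 to 8081 FPKM in WT mice against 5198, 1620 and 6383 in Gm31629-/- mice. Mouse 2, with the lowest of these sums, also had the lowest Slc5a8 and Slc16a1 levels, and mouse 3, with the highest, had the highest of both. Several of these markers, most of the neuronal and glial ones among them, passed the filter on low values through the Gm31629-/- mice alone. Orders over 3 mice cannot assign a gene to a cell type. The part of any of these cell types in the levels of the 6 genes was not tested.

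**Figure D4:**
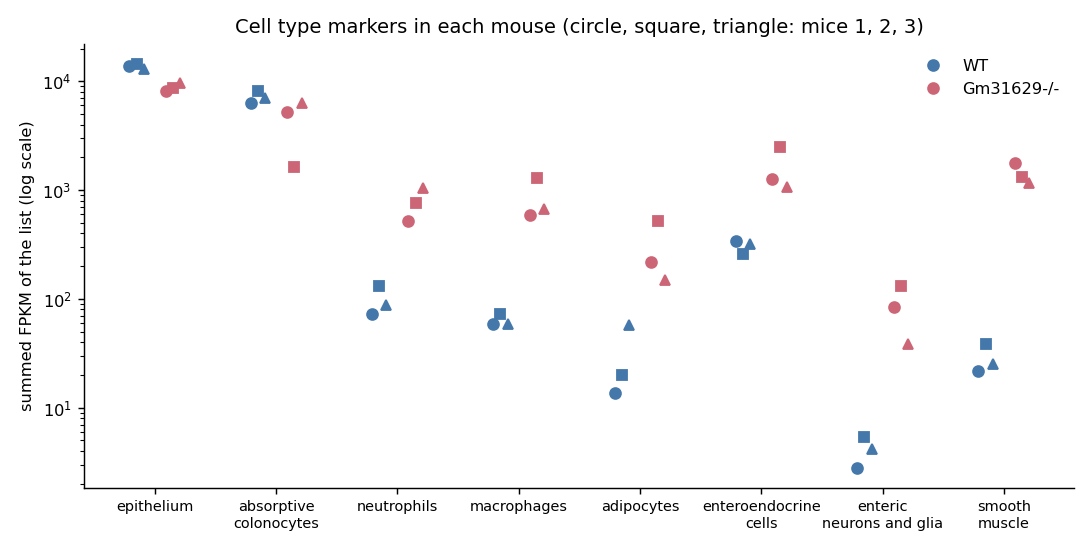
Summed FPKM of 8 marker lists (vertical axis, log scale) in each WT and Gm31629-/- mouse, with the symbol shape marking the mouse number. The epithelial sums are lower in all 3 Gm31629-/- mice, the absorptive colonocyte sums overlap between genotypes, and the other 6 sums are higher in all 3.

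Most of the tested genes that use butyrate or acetate once it has entered the cell fell. Of 11 genes for activation, oxidation and ketogenesis 8 were tested, and all 8 had negative log2 fold changes, with 5 called lower by limma against 4.64% of all tested genes, 6 lower by adjusted p, none higher at an unadjusted p under 0.05 by limma or voom, and a median of −1.08 against 0.15 for all genes. Acads, the short-chain acyl-CoA dehydrogenase that takes the first oxidative step on butyryl-CoA, was at 179 ± 13.0 FPKM in the WT mice and 36.8 ± 12.8 FPKM in the Gm31629-/- mice (−2.32, SE 0.27, adjusted p 0.000951). Bdh1, the beta-hydroxybutyrate dehydrogenase, was at 43.2, 40.6 and 50.6 FPKM in the WT mice and at 16.5, 8.57 and 13.8 FPKM in the Gm31629-/- mice, so the groups lay well apart, with a log2 difference of −1.75 (SE 0.24, adjusted p by limma 0.00170). Acsm3 (adjusted p 0.137) and Acss1 (adjusted p 0.15), named after their values were seen, did not pass, and their groups overlapped. At the other end of the called genes were Acss2, a cytosolic acetyl-CoA synthetase, at −1.13 and Echs1, which hydrates enoyl-CoA, at −1.03. Leaving out each mouse in turn left 4 to 7 of the 8 called lower, with the most without Gm31629-/- mouse 1, and rescaling to the epithelial markers left 2 called lower with all 8 still negative.

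The carriers and chaperones did not move as a group. Bsg (basigin), the membrane glycoprotein that brings MCT1 and MCT4 to the cell surface, was at 620, 627 and 655 FPKM in WT mice against 399, 310 and 479 FPKM in Gm31629-/- mice. It fell by 0.70 on the log2 scale (SE 0.19, adjusted p by limma 0.0246), and under epithelial rescaling the value was −0.08 with an adjusted p of 0.739. Emb (embigin), the alternative chaperone, rose from 0.312 ± 0.0689 FPKM to 3.26 ± 1.72 FPKM, a log2 fold change of 1.62 with an adjusted p of 0.00437, and like Ffar3 it passed the filter through the Gm31629-/- mice alone. Bsg thus remained far above Emb in every mouse. Abcg2, an export pump, did not pass (−0.11, adjusted p 0.646), Slc16a7 and Slc16a8 were below the filter, and Slc5a12 was not analysed here.

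Hcar1, the lactate receptor, lies 11236 bases from Hcar2. It was at 0.148, 0.152 and 0.162 FPKM in the WT mice and 0.281, 2.34 and 1.87 FPKM in the Gm31629-/- mice. As for Hcar2, mouse 1 was the lowest of the Gm31629-/- mice and the groups did not overlap, but the log2 fold change of 1.00 had an adjusted p of 0.0518 by limma, and Hcar1 too passed the filter through the Gm31629-/- mice alone. Ffar4, the long-chain fatty acid receptor, was at 38.3 ± 2.11 FPKM in the WT mice and 36.0 ± 14.1 FPKM in the Gm31629-/- mice, with an adjusted p of 0.668. Of the 6 related receptors 3 were tested and none passed the adjusted p by limma or by voom, while 1, Hcar1, had an unadjusted p under 0.05. This count rests on 1 library, since without Gm31629-/- mouse 1 Hcar1 (1.42, adjusted p 0.000968) and Gpr84 (2.03, adjusted p 0.00819), a receptor for medium-chain fatty acids named after its values were seen, were both called higher by limma. Epithelial rescaling also called Hcar1 (1.21, adjusted p 0.0278), and a pseudocount of 0.1 called 1 receptor. Olfr78, named after its values were seen, was below the filter on the deposited values. It was at 0.143, 0.0921 and 0.0794 FPKM in the WT mice and 0.703, 1.34 and 0.424 FPKM in the Gm31629-/- mice. Under epithelial rescaling it entered the test through the Gm31629-/- mice and passed without a call (0.86, adjusted p by limma 0.0159).

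Downstream of the receptors, 8 G protein and arrestin genes were tested, of which 3 were called higher and 1 lower. Of all tested genes 18.4% were called higher and 4.64% lower. Arrb2 (beta-arrestin 2) rose from 2.30 to 2.69 FPKM in the WT mice to 11.7 to 23.8 FPKM in the Gm31629-/- mice, by 2.19 on the log2 scale. Gnai1 and Gnao1, inhibitory alpha subunits, rose by 2.11 and 1.62 on the log2 scale, and Gnao1 passed the filter through the Gm31629-/- mice alone. Gna11, an alpha subunit of the Gq class through which FFAR2 can also signal, was at 169 ± 20.9 FPKM in the WT mice and 78.7 ± 32.0 FPKM in the Gm31629-/- mice, for a log2 difference of −1.18 (adjusted p 0.0241), and under epithelial rescaling it was −0.57 and did not pass. No gene of the list was called lower without any 1 of the WT mice, without Gm31629-/- mouse 2 or with no filter on low values.

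Of 10 genes of lactate metabolism and glycolysis 4 were called higher and none lower, by limma and by voom, with 5 higher and 1 lower at an unadjusted p under 0.05 in limma. Over all tested genes limma called 18.4% higher and 4.64% lower. Ldhb, the heart-type subunit of lactate dehydrogenase, had the largest value at 2.48, followed by Hif1a, the oxygen-regulated factor, at 2.25, then Pfkfb3 at 2.15 and Vegfa at 1.17. Hif1a was at 14.3, 8.84 and 4.64 FPKM in the WT mice and 35.7, 60.0 and 39.4 FPKM in the Gm31629-/- mice. Ldha, the muscle-type subunit, was at 546 ± 39.3 FPKM in the WT mice and 376 ± 35.4 FPKM in the Gm31629-/- mice, for a log2 difference of −0.54 (adjusted p by limma 0.0279), which became 0.08 under epithelial rescaling. Slc16a3, which exports lactate, did not pass with either. Of the 4 class I histone deacetylases, which butyrate inhibits as enzymes, none was called by limma, against 23.1% of all tested genes. By voom on the recovered fragments 1 was called, and 3 had an unadjusted p under 0.05. Hdac1 (−0.82, adjusted p 0.00322) and Hdac2 (0.86, adjusted p 0.0168), singled out after their values were seen, passed the adjusted p in opposite directions, but under epithelial rescaling Hdac1 was at −0.22 and did not pass (adjusted p 0.283) and Hdac2 was called at 1.36.

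**Figure D5:**
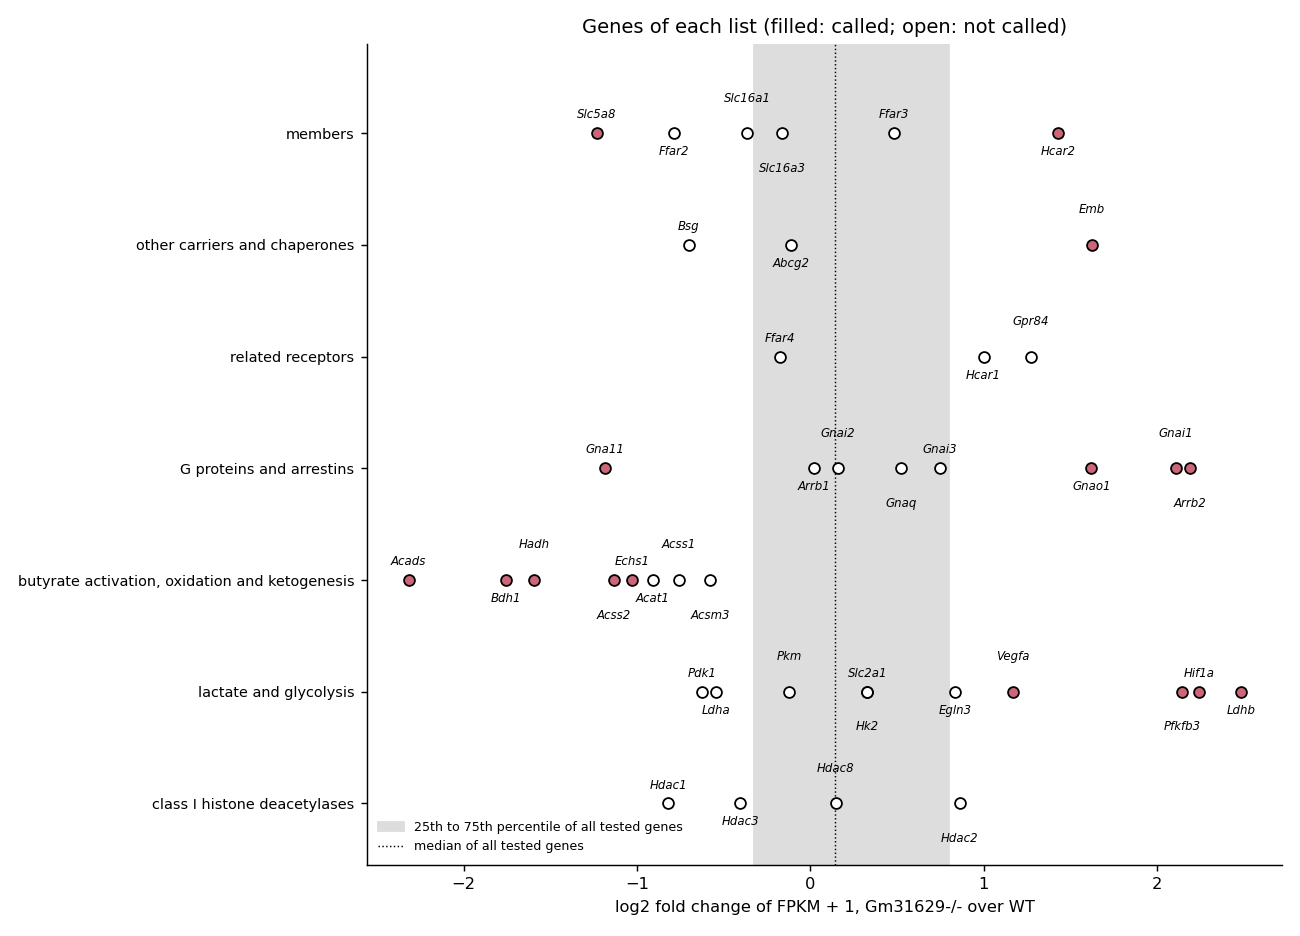
Log2 fold change of FPKM + 1 in Gm31629-/- over WT mice for every tested gene of the 6 member genes and 6 related lists (rows), with called genes filled. The gray band spans the 25th to 75th percentile of all tested genes and the dotted line their median of 0.15. All 8 tested genes of the list of activation, oxidation and ketogenesis lie to the left of 0.

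The genes whose log2(FPKM + 1) followed each member most closely over the 6 mice were found by Pearson's r, given as a description. For Slc16a1 they were Smim22 and Sertad3, both at 0.992, and Aoc1, the histamine-degrading diamine oxidase, at 0.988. Aoc1 was at 46.7, 65.6 and 63.2 FPKM in the WT mice and 29.2, 17.5 and 79.0 FPKM in the Gm31629-/- mice, with the same lowest and highest mouse as Slc16a1. For Slc16a3 they were Oxsr1 at 0.981, Tollip at 0.979 and Mcts2 at 0.977. For Slc5a8 they were Gm16401 at 0.990, Gm10031 at 0.989 and B3galt5, a galactosyltransferase, at 0.984. B3galt5 was at 222, 225 and 179 FPKM in WT mice against 106, 101 and 148 FPKM in Gm31629-/- mice. Ffar2 was followed by Gm10335 and Hoxb8, both at 0.998, and the cell cycle kinase gene Wee1 at 0.997. Ffar3 was followed by Avil at 0.997 and by Reps1 and Tmem59l at 0.995, and Hcar2 by Nat14, Clec11a and Fkbp14 at 0.998. An r above 0.95 was shared with Slc16a1 by 20 genes, with Slc16a3 by 18 and with Slc5a8 by 39, but with Ffar2 by 653, with Ffar3 by 417 and with Hcar2 by 1037. The 3 members with the larger counts had groups that did not overlap, as did Slc5a8.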

How the data were processed

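Distal colon RNA of 3 Gm31629-/- and 3 WT mice was sequenced (Illumina TruSeq kit), with groups and mouse numbers taken from the labels. The authors deposited FPKM values for 27546 genes, already divided by gene length and library depth. The submitters' processing notes name HISAT2 2.1.0, HTSeq 0.6.0 and GRCm38, and the annotation is not given in the sources used here. Symbols, positions and exon lengths came from GENCODE M21 and matched 27488 genes. Fragments behind each value were recovered from the size of 1 fragment, which put 96.3% to 97.2% of the values of 20 fragments or fewer within 0.1 of whole numbers. At the resulting depths of 18004615 to 18794288 fragments, counting error is 1 limit on low genes.

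Genes with a mean FPKM of 0.5 or more (14657) entered a linear model of genotype on log2(FPKM + 1), fitted in limma 3.58.1 (R 4.3.3) with a mean-variance trend and tested on simulated data. The pseudocount shrinks fold changes of low genes. Ratios within libraries were compared with two-sided exact permutation tests (SciPy 1.17.1). The limma p-values set the genotype difference against the spread within groups of these samples. Nothing states whether mice came from separate litters, and the tests treat them as independent. All 6 genes were named with every value. From the related lists (other carriers and chaperones, related receptors, G proteins and arrestins, butyrate and acetate use, lactate and glycolysis, class I histone deacetylases), up to 4 called genes at the extremes were named, plus Bsg, Emb, Slc5a12, Hcar1, Ffar4, Ldha and Hif1a. Some genes of the lists are not reported here. The 6 genes and all lists were chosen with earlier results of these data known. Alternatives were the pseudocount, the filter, 2 rescalings, eBayes without a trend, a replicate block, each mouse left out, and, added after seeing the data, voom on the recovered fragments and list counts under these fits.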

Additional observations from a re-analysis of the deposited data

How the results depend on the processing

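The count of called genes was 3384 (79.9% higher in Gm31629-/- mice), and it was 1449 with a mean FPKM of at least 5 (66.0% higher), a filter that leaves no value for Ffar3 and Hcar2. It was 3449 after median ratio rescaling (64.7% higher), 4776 after epithelial rescaling (94.8% higher), and 4643 with voom on the recovered fragments. The median of all genes was 0.15, −0.06 and 0.63 on the deposited, median ratio and epithelial scales, so directions near 0 depend on the scale. Epithelial rescaling turned Slc16a1 to 0.24 and Slc16a3 to 0.41, and took Slc5a8 to −0.64 (adjusted p 0.0706, range over its alternatives 0.00745 to 0.0706) and out of the call. Median ratio rescaling took Ffar2 to −1.002 and into the call. The log2 fold change of Hcar2 was 2.26 with a pseudocount of 0.1 and 2.41 with voom, and that of Ffar3 was 1.05 and 1.19.

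Leaving out each mouse moved the count between 2810 and 3606, Slc5a8 between −1.49 and −0.997 (called in 5 of 6 fits), the difference in the ratio of Slc16a3 to Slc16a1 between −0.0826 and 0.665, and that of Slc16a1 to the epithelial markers between −0.0720 and 0.475. The sign turned without Gm31629-/- mouse 2 and without mouse 3, respectively. Same-numbered mice did not deviate together (correlations 0.0358, −0.108 and 0.0141), not every mouse correlated best with its own number, and mice share only a number. With the replicate block 3357 genes were called and no call among the 6 genes changed, with adjusted p of 0.0307 for Slc5a8, 0.0101 for Hcar2, 0.0191 for Ffar2 and 0.123 for Ffar3. The cause of these shifts was not tested. With 12 to 15 fragments a library in WT mice, counting error limits the fold of Ffar3.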
